A study of Mus musculus with 17 samples.

Results

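Common lymphoid progenitors (CLP) were compared with megakaryocyte progenitors (MkP) on 6 expression arrays, 3 for each population, out of 17 arrays in the series. Both were isolated by cell sorting from marrow of mice 10 to 14 weeks old, as part of a study that sorted 5 progenitor fractions to map how the myeloid and erythroid lineages branch. The CLP arrays carry the gate Lin-Sca1lowKitlowIL7r+Flk2+ in their titles, and the MkP arrays carry the gate Lin-Sca1-Kit+Itga2b+Slamf1+. Each array was assigned by that gate, and the short names follow the usual scheme for these populations. The other fractions, preGM (3 arrays), preMegE (5 arrays) and preCFUE (3 arrays), served to estimate the spread between arrays. The sources used here give neither strain nor sex, and they do not say how many mice or sorts stand behind an array. The p-values therefore rest on how much these arrays vary, and that variation may be technical. The comparison covered 17401 autosomal genes of 18193 genes with a named probe set, with 1 probe set per gene.

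CLP and MkP stand at the ends of separate branches of blood formation. Lymphoid progenitors depend on interleukin 7 and FLT3 ligand, and they begin to express the recombinase that later cuts and joins the antigen receptor genes. Megakaryocyte progenitors depend on thrombopoietin, become polyploid as they mature, and build the adhesion receptors and storage granules that platelets carry into the blood. Transcription factors of the early B cell programme on one side, and the GATA factors with their cofactors on the other, are the textbook regulators of these branches.

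The promoters of 4 genes are shown because these genes lead the recombination list and the platelet granule list described below. Each runs 5′ to 3′ on the strand of the gene, from 250 bases before to 50 bases after the start, and was taken from RefSeq (GRCm38.p6). Capitals mark matches, on either strand, to AGATAA or TGATAA (bound by GATA factors), CGGAAG (bound by ETS factors) or CAGGTG (an E-box). Ighm and Vwf belong to the same choice by rank and are named only. The promoter of Dntt lies at chr19:41029025-41029324 on the plus strand, that of Rag1 at chr2:101649483-101649782 on the minus strand, that of Pf4 at chr5:90772185-90772484 on the plus strand and that of Mmrn1 at chr6:60944067-60944366 on the plus strand.
Dntt: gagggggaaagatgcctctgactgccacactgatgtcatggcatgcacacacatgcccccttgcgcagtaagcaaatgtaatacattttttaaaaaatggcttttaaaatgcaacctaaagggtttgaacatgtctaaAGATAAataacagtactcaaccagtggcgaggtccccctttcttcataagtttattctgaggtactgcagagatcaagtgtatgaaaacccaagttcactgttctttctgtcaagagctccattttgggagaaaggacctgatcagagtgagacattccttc
Rag1: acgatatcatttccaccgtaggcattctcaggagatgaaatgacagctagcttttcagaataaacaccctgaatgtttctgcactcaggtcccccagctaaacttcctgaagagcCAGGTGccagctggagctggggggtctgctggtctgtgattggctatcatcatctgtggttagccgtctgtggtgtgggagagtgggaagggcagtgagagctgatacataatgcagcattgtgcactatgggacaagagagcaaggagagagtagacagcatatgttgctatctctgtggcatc
Pf4: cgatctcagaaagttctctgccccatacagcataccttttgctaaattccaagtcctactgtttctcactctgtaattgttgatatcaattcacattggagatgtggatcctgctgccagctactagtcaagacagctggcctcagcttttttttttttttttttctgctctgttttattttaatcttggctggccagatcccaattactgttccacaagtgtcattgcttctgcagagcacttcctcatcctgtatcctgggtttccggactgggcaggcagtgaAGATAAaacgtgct
Mmrn1: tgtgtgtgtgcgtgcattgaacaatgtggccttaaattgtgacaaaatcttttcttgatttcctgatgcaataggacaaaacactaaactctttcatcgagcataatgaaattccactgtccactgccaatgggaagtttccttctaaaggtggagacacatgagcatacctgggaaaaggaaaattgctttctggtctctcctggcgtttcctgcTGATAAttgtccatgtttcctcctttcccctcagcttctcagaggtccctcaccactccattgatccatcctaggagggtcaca
The AGATAA match of Dntt begins 112 bases before the start, and the CAGGTG match of Rag1 begins 135 bases before it. The TGATAA match of Mmrn1 begins 34 bases before the start, and the AGATAA match of Pf4 begins 37 bases into the transcribed part. AGATAA stood in 7.98% of the 13832 promoters that belong to compared genes, TGATAA in 5.34%, CGGAAG in 25% and CAGGTG in 19.8%. AGATAA or TGATAA stood in 10.7% of the promoters of genes higher in CLP and in 10.6% of the promoters of genes lower in CLP, beside 12.6% of the promoters of all compared genes. A match is a run of letters and does not show that a factor binds there.

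The arrays of a population were more alike than arrays of different populations, with 1 exception. CLP replicate 2 had a mean correlation of 0.949 with the other CLP arrays across the genes compared and of 0.961 with the preGM arrays. The other CLP arrays correlated more with CLP than with preGM, and the MkP arrays had mean correlations of 0.98 to 0.983 among themselves. CLP and MkP arrays correlated at 0.885 to 0.921 on average. Median intensity was 17.6 to 19.1 on the CLP arrays and 17.6 to 17.9 on the MkP arrays. The log2 ratio between the Gapdh control probe sets at both ends of the transcript, a measure of how far amplification kept whole transcripts, ran from 3 to 5.12 on the CLP arrays and from 3.38 to 4.14 on the MkP arrays. No pair of arrays held identical values. A free-text description shared by all arrays names a further gate that goes against the titles, and groups were not taken from it. Because CLP replicate 2 stands apart, counts are also given without it.

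The genes that encode the sorted proteins served as a check of the labels. Il7r, the interleukin 7 receptor, had intensities of 1296, 2367 and 1593 on the CLP arrays, against 17, 12.5 and 12.9 on the MkP arrays. Flt3, which encodes the receptor that the gate calls Flk2, had 2304, 2389 and 1662 on the CLP arrays, against 52.9, 57.3 and 77.5 on the MkP arrays. Itga2b, the integrin chain also known as CD41, had 45.8, 50.9 and 47.4 on the CLP arrays, against 1943, 2343 and 1886 on the MkP arrays. All 3 genes followed their gates without overlap. Slamf1, known as CD150, had 13, 10.4 and 12.7 on the CLP arrays, against 52.4, 66.5 and 57.1 on the MkP arrays. Kit, the receptor for stem cell factor, was gated low in CLP, and its intensities of 87.0, 173 and 71.1 on the CLP arrays overlapped 169.8, 248 and 136 on the MkP arrays. Its log2 difference of -0.71 ± 0.28 (SE) did not pass the test (limma, adjusted p = 0.133), and without CLP replicate 2 it was -1.05 (adjusted p = 0.0118).

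Of the 17401 genes, 2179 differed between CLP and MkP at an adjusted p under 0.05 in limma's moderated test on log2(intensity + 16), which is 12.5%. Of these, 1040 genes were higher in CLP (5.98% of all genes) and 1139 were lower (6.55%). A difference of at least 2-fold was reached by 540 of the higher genes (3.1%) and by 590 of the lower genes (3.39%). At least 16-fold differences were seen for 31 higher and 13 lower genes. The median difference over all genes was -0.01. The counts of each gene list below are to be read beside these figures for all genes. Arrays did not overlap for 2101 of the 2179 genes, and over all genes the CLP arrays lay wholly above the MkP arrays for 10.6% and wholly below for 11.6%. Without CLP replicate 2, 1198 genes were higher and 1854 lower, so the count of lower genes moved by more than 1.5 times. When only the 6 arrays were fitted, 571 genes were higher and 588 lower.

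The 12 largest differences in favour of CLP were led by Dntt, which encodes the terminal transferase that adds untemplated bases to antigen receptor joints. Dntt had intensities of 7463, 10275 and 5702 on the CLP arrays, against 21.0, 23.9 and 15.2 on the MkP arrays, a log2 difference of 7.73 ± 0.24 (SE, limma, adjusted p = 4.37e-11). Cnn3, which encodes the actin-binding protein calponin 3, had 2914, 4422 and 1715 on the CLP arrays, against 12.6, 10.8 and 12.1 on the MkP arrays, a log2 difference of 6.67. Ighm, the heavy chain constant region of IgM, had 1873, 2012 and 3073 on the CLP arrays, against 19.5, 9.12 and 20.3 on the MkP arrays, a log2 difference of 6.16 ± 0.85 (SE, limma, adjusted p = 0.000144). The groups did not overlap in these 3, which follows from taking the 12 among genes past the test without overlap. The others were Il7r (5.83), Satb1 (5.69), Ebf1 (5.43), Rag1 (5.36), Notch1 (5.21), Irf8 (5.00), St8sia4 (4.98), Bex6 (4.97) and Jakmip1 (4.93), given as log2 differences. The protein of Il7r was part of the CLP gate. St8sia4 encodes a polysialic acid transferase, and Jakmip1 encodes a protein that binds Janus kinases and microtubules.

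**Figure D1:**
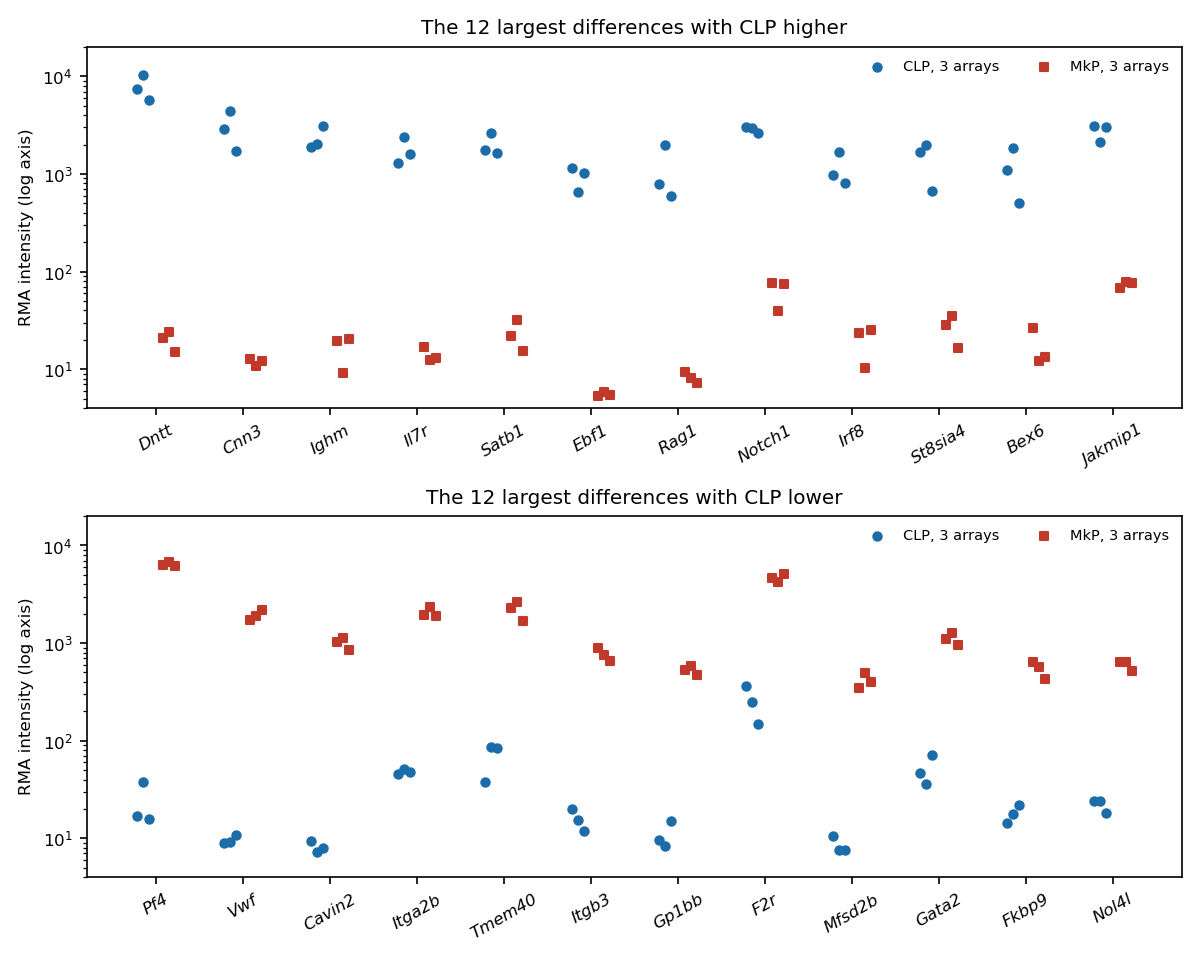
RMA intensity, on a log axis, of the 12 genes with the largest difference in each direction (upper panel CLP higher, lower panel CLP lower) on each array, with CLP arrays as circles and MkP arrays as squares. Genes were taken from those past the test whose CLP and MkP arrays do not overlap. That the arrays lie apart in every gene follows from this choice. Dntt and Pf4 have the widest gaps.

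The 12 largest differences in favour of MkP were led by Pf4, which encodes platelet factor 4, a chemokine stored in platelet granules. Pf4 had intensities of 17, 37.5 and 15.9 on the CLP arrays, against 6373, 6772 and 6148 on the MkP arrays, a log2 difference of -7.39 ± 0.18 (SE, limma, adjusted p = 4.04e-12). Vwf, the adhesive protein von Willebrand factor, had 9.05, 9.17 and 10.7 on the CLP arrays, against 1739, 1909 and 2167 on the MkP arrays, a log2 difference of -6.25. Cavin2, which encodes a coat protein of caveolae, had 9.47, 7.24 and 7.93 on the CLP arrays, against 1037, 1123 and 853 on the MkP arrays, a log2 difference of -5.39. The CLP arrays lay below the MkP arrays in all 3, again by the rule of choice. The others were Itga2b (-5.01), Tmem40 (-4.74), Itgb3 (-4.63), Gp1bb (-4.33), F2r (-4.19), Mfsd2b (-4.11), Gata2 (-4.08), Fkbp9 (-4.04) and Nol4l (-4), given as log2 differences. The protein of Itga2b was part of the MkP gate. Mfsd2b encodes an exporter of sphingosine-1-phosphate, and Fkbp9 encodes a peptidyl-prolyl isomerase of the endoplasmic reticulum.

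Among 26 measured transcription regulators of lymphoid development, 12 were higher in CLP, none was lower and 14 did not pass the test. The median log2 difference of the list was 0.50, beside -0.01 for all genes. Ebf1, the factor that starts the B cell programme, had intensities of 1147, 647 and 1030.4 on the CLP arrays, against 5.35, 5.88 and 5.40 on the MkP arrays, a log2 difference of 5.43 ± 0.14 (SE, limma, adjusted p = 8.45e-12). Satb1, a chromatin organiser of lymphoid genes, had 1749.5, 2651 and 1655 on the CLP arrays, against 22.1, 31.8 and 15.3 on the MkP arrays. Notch1, the receptor whose signal directs progenitors to the T lineage, had 2998, 2935 and 2635 on the CLP arrays, against 75.9, 39.6 and 75.2 on the MkP arrays. The groups did not overlap in any of them. Irf8, a factor of B cells and of monocytes and dendritic cells, had 978, 1699 and 810.0 on the CLP arrays, against 23.5, 10.4 and 25.2 on the MkP arrays. Smaller log2 differences that passed the test were those of Sox4 (2.61), Foxo1 (2.29), Ikzf1 (2.17) and Aff3 (2.13). Foxo1 maintains Il7r and Rag expression, and Ikzf1 encodes Ikaros, a zinc finger factor needed for lymphoid commitment. Pax5, which fixes B cell identity and was singled out after its values were seen, had 25.4, 24.6 and 37.3 on the CLP arrays, against 20.7, 23.2 and 25.1 on the MkP arrays. Its groups overlapped, and it did not pass (limma, adjusted p = 0.378).

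Of 12 measured genes of recombination and the pre-B receptor, 10 were higher in CLP and 2 did not pass, with a median log2 difference of 2.12. Rag1, which encodes the catalytic subunit of the recombinase, had intensities of 797, 1991 and 591 on the CLP arrays, against 9.37, 8.19 and 7.28 on the MkP arrays, a log2 difference of 5.36 ± 0.28 (SE, limma, adjusted p = 6.44e-09). CLP replicate 2 was the highest of the CLP arrays, and without it the log2 difference was 4.86. Rag2, its partner subunit, had 189, 294 and 169.6 on the CLP arrays, against 38.8, 29.8 and 40.6 on the MkP arrays, a log2 difference of 2.13. Vpreb1 and Igll1 encode the surrogate light chain that pairs with the heavy chain before the true light chain is made. Vpreb1 had 579, 890.0 and 441 on the CLP arrays, against 11.6, 20.4 and 11.2 on the MkP arrays. Igll1 had 191, 319.9 and 220.3 on the CLP arrays, against 38.0, 42.5 and 46.8 on the MkP arrays. Blnk, the adaptor behind the pre-B receptor, had 390.1, 948 and 736 on the CLP arrays, against 16.3, 25.4 and 13.7 on the MkP arrays. None of these genes overlapped between the populations. The members that did not pass were Igk, the kappa light chain locus, with 15.5, 16 and 18.2 on the CLP arrays against 19.4, 13.3 and 15 on the MkP arrays, and Cd79b, with 75.6, 176 and 37.4 on the CLP arrays against 50.1, 67.9 and 61.6 on the MkP arrays. Cd79b passed without CLP replicate 3 (log2 difference 0.81, limma, adjusted p = 0.0310). Cd79a, which encodes the other signalling chain of the B cell receptor, passed with a log2 difference of 1.43. The promoter lines above show an E-box match for Rag1 and a GATA match for Dntt.

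Lymphoid surface and signalling genes lay on the CLP side or did not pass. Of 22 measured, 17 were higher in CLP, none was lower and 5 did not pass, and the median log2 difference was 2.20. The 17 include Il7r and Flt3, whose proteins were used to sort the CLP, so their differences follow in part from the gates. H2-Ob, a modulator of antigen loading on MHC class II, had a log2 difference of 4.02, and the small surface glycoprotein gene Cd52 one of 3.88. Cd24a, the heat stable antigen used to stage B cell progenitors, had 1652, 3184 and 1653 on the CLP arrays, against 264, 223 and 123 on the MkP arrays. Ccr9, the receptor that guides progenitors to the thymus, had 199.8, 258 and 171 on the CLP arrays, against 8.67, 6.69 and 7.84 on the MkP arrays. Ly6d, which marks the CLP that are set on the B lineage, had 164, 219 and 223 on the CLP arrays, against 14.6, 15 and 16.9 on the MkP arrays. In all 3 the CLP arrays lay above the MkP arrays. Cxcr4, the receptor for the marrow retention signal CXCL12, differed by 2.96 on the log2 scale and Btla, an inhibitory receptor of lymphocytes, by 3.06. Cd48, a SLAM family receptor, was higher in CLP with a log2 difference of 1.87 (limma, adjusted p = 0.0439), and the call was lost when CLP replicate 1, CLP replicate 2, MkP replicate 1 or MkP replicate 3 was left out (adjusted p between 0.0609 and 0.169). Ptprcap had 208, 618 and 228 on the CLP arrays, against 161, 160.2 and 129 on the MkP arrays, and passed the test in limma without CLP replicate 1 (adjusted p = 0.0431) but not with it (adjusted p = 0.0877).

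**Figure D2:**
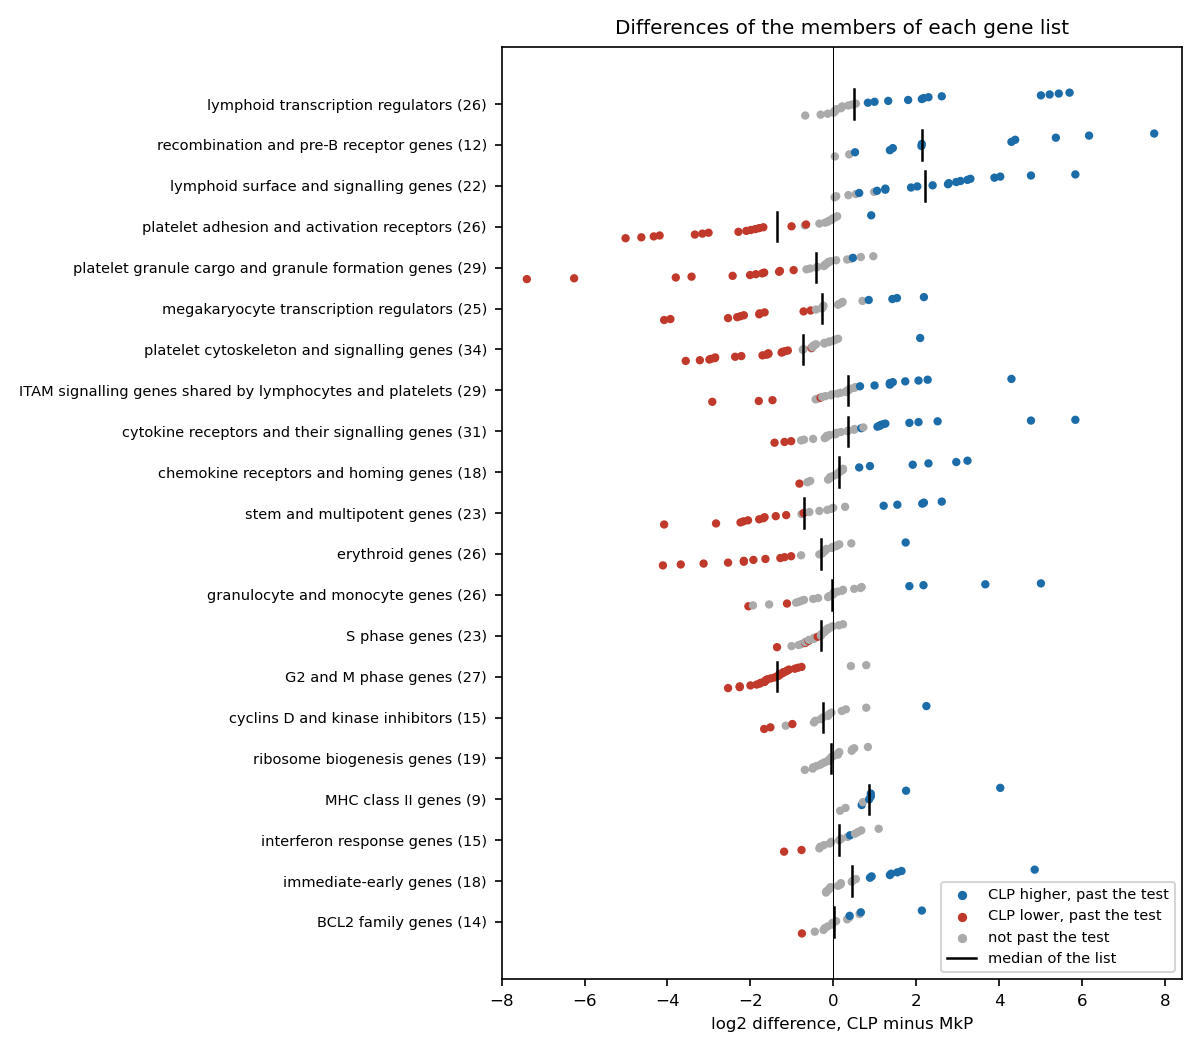
Log2 differences, CLP minus MkP, of the measured members of 21 gene lists, with the number of members in brackets and the median as a vertical line. Blue points passed the test with CLP higher, red points passed with CLP lower and grey points did not pass. The recombination and lymphoid surface lists have medians of 2.12 and 2.20, and the G2 and M phase list has a median of -1.37.

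On the megakaryocyte side, 15 of 26 measured platelet adhesion and activation receptors were lower in CLP, 1 was higher and 10 did not pass, with a median log2 difference of -1.35. The 15 include Itga2b, whose protein was used to sort the MkP. Itga2b and Itgb3 encode both chains of the fibrinogen receptor. Itgb3 had intensities of 20.1, 15.3 and 11.8 on the CLP arrays, against 896, 757 and 659 on the MkP arrays, a log2 difference of -4.63 ± 0.17 (SE, limma, adjusted p = 1.99e-10). Gp1bb, Gp5 and Gp9 encode chains of the receptor for von Willebrand factor. Gp1bb had 9.70, 8.34 and 14.9 on the CLP arrays, against 530.1, 578 and 467 on the MkP arrays. Gp5 had 29.1, 16.7 and 20.2 on the CLP arrays, against 165, 204 and 140.3 on the MkP arrays. Gp9, singled out after its values were seen, had 36.3, 33.9 and 25.5 on the CLP arrays, against 179, 205 and 143 on the MkP arrays. None of the chains overlapped between the populations. F2r, which encodes PAR1, 1 of the thrombin receptors, had 359.8, 250.2 and 148 on the CLP arrays, against 4618, 4217 and 5114 on the MkP arrays. The tetraspanin gene Cd9 (-3.34), the laminin receptor chain Itga6 (-3.16) and Selp (-3.01), which encodes the P-selectin of platelet granules, were lower in CLP by the log2 differences given.

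Some receptors of mature platelets were among the genes that did not pass. Gp6, the collagen receptor, had 10.7, 9.05 and 12.8 on the CLP arrays, against 17.1, 10.1 and 11.8 on the MkP arrays. It was dim in both populations and did not pass (limma, adjusted p = 0.532), and it was singled out after its values were seen. The files hold no detection call, so dim signal cannot be told from no expression. Tbxa2r, the thromboxane receptor, was the 1 member that passed the test as higher in CLP. It had 245, 191 and 173 on the CLP arrays, against 99.9, 104 and 94.9 on the MkP arrays, a log2 difference of 0.91 ± 0.15 (SE, limma, adjusted p = 0.000696). Tbxas1, which makes thromboxane, had 40.6, 33.0 and 25.5 on the CLP arrays, against 132, 182 and 122 on the MkP arrays, a log2 difference of -1.71. Receptor and enzyme thus differed in opposite directions, and neither overlapped between the populations.

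Among 29 measured genes for platelet granule cargo and granule formation, 12 were lower in CLP, 1 was higher and 16 did not pass, with a median log2 difference of -0.41. The lower genes included cargo and parts of the release machinery. Mmrn1, the factor V carrier multimerin 1, had intensities of 20.2, 19.2 and 10.9 on the CLP arrays, against 429.8, 398 and 487 on the MkP arrays, a log2 difference of -3.80 ± 0.12 (SE, limma, adjusted p = 4.37e-11). Rab27b, a small GTPase needed for dense granules, had 9.19, 7 and 9.83 on the CLP arrays, against 254, 265 and 224 on the MkP arrays. Ppbp, the precursor of a platelet chemokine, had 14.4, 6.93 and 11.1 on the CLP arrays, against 107, 47.3 and 104 on the MkP arrays. All 3 genes lay apart in the populations, and Pf4 and Vwf are given above. Stx11 (-2.43), Vamp8 (-2.01) and Slc18a2 (-1.72), which encode membrane fusion proteins and the transporter that loads monoamines into vesicles, were lower in CLP by the log2 differences given. The call of Vamp8 was lost when only the 6 arrays were fitted (limma, adjusted p = 0.0632). Members of the general granule sorting machinery, Hps1 and Hps4, did not pass. Hps1 had 467, 329.8 and 411 on the CLP arrays, against 472, 401 and 526 on the MkP arrays. Srgn, the granule proteoglycan serglycin, had 1709, 3211 and 1528 on the CLP arrays, against 3065, 3347 and 2626 on the MkP arrays (limma, adjusted p = 0.129), and without CLP replicate 2 its adjusted p was 0.00112. The TGATAA match of the Mmrn1 promoter and the AGATAA match of the Pf4 promoter are those shown in the promoter lines.

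Transcription regulators of megakaryocytes were split. Of 25 measured, 11 were lower in CLP, 4 were higher and 10 did not pass, with a median log2 difference of -0.28. Gata1 is X-linked and lies outside the genes compared. Gata2, a GATA factor of stem cells, megakaryocytes and mast cells, had intensities of 46.8, 35.9 and 71.9 on the CLP arrays, against 1103, 1261 and 952 on the MkP arrays, a log2 difference of -4.08 ± 0.22 (SE, limma, adjusted p = 9.21e-09). Zfpm1, which encodes the GATA cofactor FOG1, had 38.2, 43.3 and 49.6 on the CLP arrays, against 859, 1081 and 768 on the MkP arrays. Gfi1b, a repressor of the erythroid and megakaryocyte lineages, had 27.9, 29.3 and 31.8 on the CLP arrays, against 256, 259.6 and 235 on the MkP arrays. The CLP arrays lay below the MkP arrays in each. Nfe2 (-2.32), a factor needed for platelet release, Meis1 (-2.24), Tal1 (-2.16) and Mecom (-1.79) were also lower in CLP, with log2 differences in brackets. The call of Meis1 was lost when only the 6 arrays were fitted (limma, adjusted p = 0.0729).

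The 4 members that were higher in CLP were Hoxa9 (2.18), Lyl1 (1.53), Ets1 (1.42) and Myb (0.85), with log2 differences in brackets, and the last 3 were singled out after their values were seen. Hoxa9 had intensities of 1312, 2164 and 1606 on the CLP arrays, against 383, 380.3 and 306 on the MkP arrays. Lyl1, the close relative of Tal1, had 511, 688 and 562 on the CLP arrays, against 196, 199 and 180.0 on the MkP arrays. These relatives differed in opposite directions without overlap. Ets1 and Fli1, both ETS factors, also differed in opposite directions. Ets1 had 343, 353 and 115 on the CLP arrays, against 87.1, 75.9 and 80.6 on the MkP arrays. Fli1, singled out after its values were seen, had 153, 228 and 115 on the CLP arrays, against 401, 725 and 697 on the MkP arrays, a log2 difference of -1.78. The call of Ets1 was lost when only the 6 arrays were fitted (limma, adjusted p = 0.131), and that of Myb when the probe sets of a gene were averaged (adjusted p = 0.0606). Several regulators with a known part in megakaryocytes did not pass. Mef2c had 1355, 1745 and 1125 on the CLP arrays, against 1539.8, 2016 and 1431 on the MkP arrays. Runx1, singled out in the same way, had 671, 334 and 529 on the CLP arrays, against 594, 533 and 679.7 on the MkP arrays.

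The 5 fractions placed these genes in distinct patterns. Ebf1 averaged 941 in CLP, 5.54 in MkP, 6.29 in preGM, 5.81 in preMegE and 6.63 in preCFUE, and Rag1 showed the same arrangement. Notch1, Irf8 and Dntt also had signal in preGM, the granulocyte and macrophage progenitor. Irf8 averaged 1162 in CLP, against 1509 in preGM, and that log2 difference of -0.43 did not pass (limma, adjusted p = 0.217). Dntt averaged 7813 in CLP, against 1866 in preGM, a log2 difference of 2.08 (limma, adjusted p = 6.58e-05). Ikzf1 and Cd24a were lowest in MkP among the 5 fractions and were not high in CLP alone. Ikzf1 averaged 1713 in CLP and 367 in MkP, against 1070 in preGM, 1214 in preMegE and 1416 in preCFUE. Cd24a averaged 2163 in CLP and 203 in MkP, against 2342 in preGM, 1385 in preMegE and 2896 in preCFUE. On the other side, Pf4, Itgb3 and Mmrn1 were high in MkP alone among the 5 fractions. Itgb3 averaged 771 in MkP, against 15.1 in preMegE, the shared megakaryocyte and erythroid progenitor, a log2 difference of 4.66 (limma, adjusted p = 1.38e-10). Gata2 and F2r were also high in preMegE, and Hemgn, an erythroid nuclear protein, in preMegE and preCFUE. F2r averaged 4649.7 in MkP, against 4100.2 in preMegE (log2 difference 0.18, limma, adjusted p = 0.608). Comparisons of MkP or CLP with other fractions share their arrays with the comparison of CLP and MkP.

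**Figure D3:**
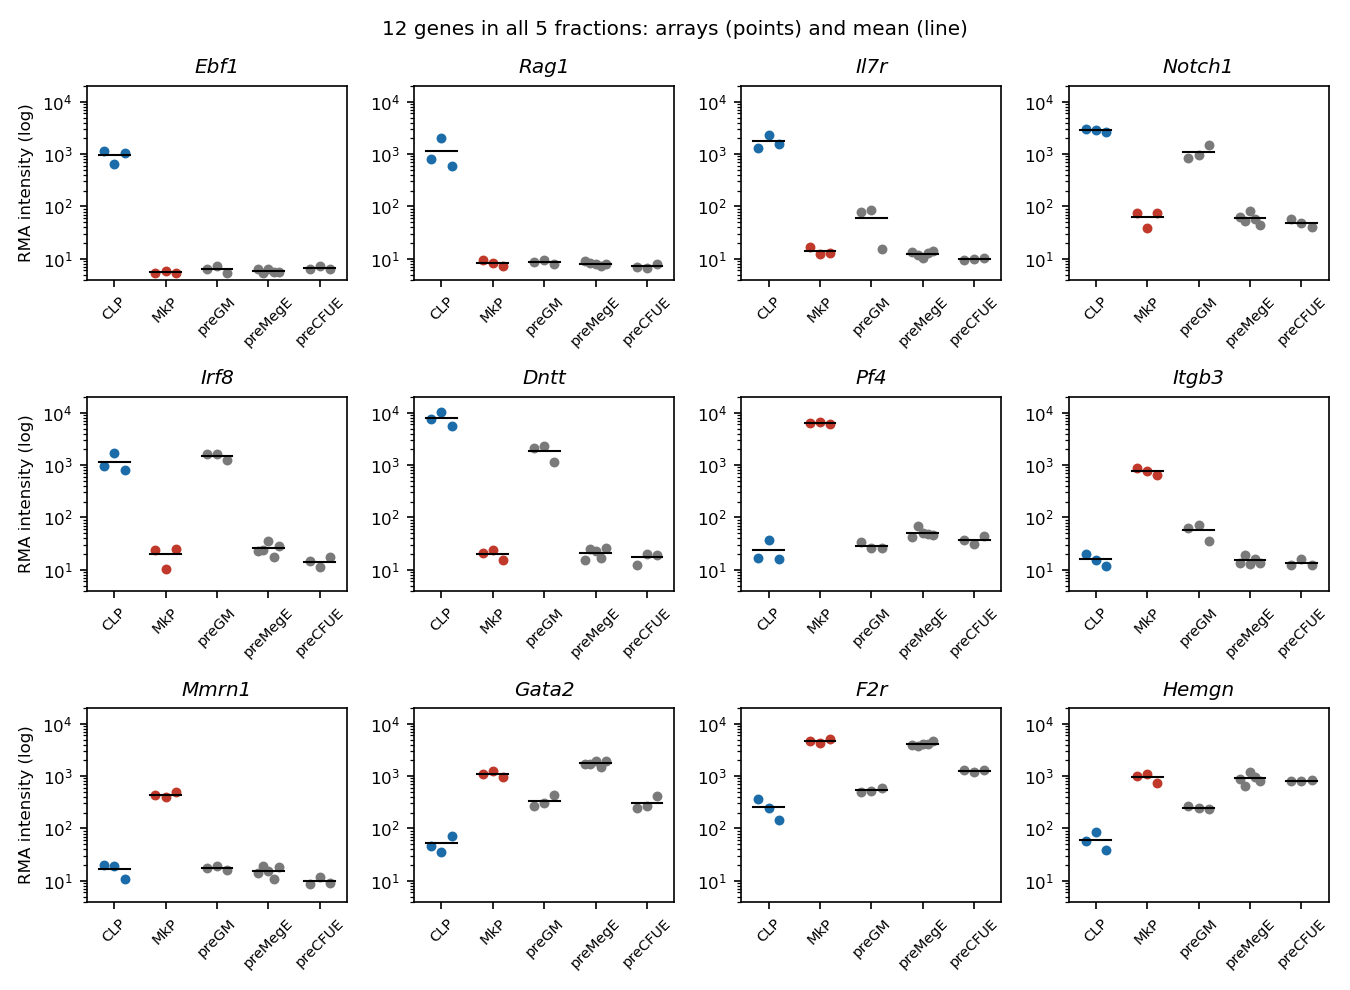
RMA intensity, on log axes, of 12 genes on all 17 arrays, by fraction from CLP to preCFUE, with each array as a point and the mean as a line. Ebf1 and Rag1 are high in CLP alone, Irf8 and Dntt also in preGM, Pf4, Itgb3 and Mmrn1 in MkP alone, Gata2 and F2r also in preMegE, and Hemgn also in preMegE and preCFUE.

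Genes of the platelet cytoskeleton and its signalling were mostly lower in CLP or did not pass. Of 34 measured, 17 were lower, 1 was higher and 16 did not pass, with a median log2 difference of -0.73. Plek, which encodes pleckstrin, the main protein kinase C substrate of platelets, had intensities of 182, 361 and 97.8 on the CLP arrays, against 2443, 3059.5 and 1828 on the MkP arrays, a log2 difference of -3.56. Rap1b, the GTPase that switches on the fibrinogen receptor, had 448, 1684 and 559 on the CLP arrays, against 7194, 8884 and 5719 on the MkP arrays. Rgs18, a brake on G protein signals in platelets, had 63.4, 247 and 109 on the CLP arrays, against 1013, 1335 and 935 on the MkP arrays. CLP replicate 2 was the highest CLP array in all 3 genes and still lay below the MkP arrays. Prkg1 and Gucy1a1, a kinase and a cyclase subunit of the cyclic GMP pathway that restrains platelets, differed by -2.86 and -2.85 on the log2 scale. Pla2g4a, which releases the arachidonic acid that thromboxane is made from, differed by -2.95, and the focal adhesion genes Actn1 and Vcl by -2.37 and -2.22. Tubb1, the platelet tubulin, had 14.1, 10.9 and 16.6 on the CLP arrays, against 30, 70.3 and 70 on the MkP arrays, and was singled out after its values were seen. Its log2 difference was -1.23, and the call was lost when only the 6 arrays were fitted (limma, adjusted p = 0.0547).

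Lymphocytes and platelets both signal through tyrosine motifs called ITAMs, and their shared components gave a mixed picture. Of 29 measured, 10 were higher in CLP, 4 were lower and 15 did not pass, with a median log2 difference of 0.36. Blnk, the adaptor of B cells, was higher in CLP as given above, while Lcp2, which encodes the adaptor SLP-76 of T cells and platelets, had intensities of 23.2, 46.4 and 34.3 on the CLP arrays, against 127, 162 and 86.4 on the MkP arrays. Prkcb, which encodes protein kinase C beta of B cell receptor signalling, had 129, 178 and 275 on the CLP arrays, against 21.4, 28.6 and 27.3 on the MkP arrays. Prkcq, which encodes protein kinase C theta, had 53.2, 89.8 and 31.5 on the CLP arrays, against 269, 199 and 225 on the MkP arrays. Dapp1, an adaptor that binds membrane phosphoinositides, was lower in CLP with a log2 difference of -2.92. Sh2b3, a brake on cytokine receptors (2.05), and Inpp5d, the lipid phosphatase SHIP1 (1.73), were higher. The call of Inpp5d was lost without CLP replicate 3 (log2 difference 1.51, limma, adjusted p = 0.0554). Syk, the kinase that both lineages use, had 1309, 1109.5 and 981 on the CLP arrays, against 1068, 1191 and 782 on the MkP arrays, and did not pass.

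Cytokine receptors and their signalling genes leaned to CLP. Of 31 measured, 11 were higher in CLP, 3 were lower and 17 did not pass, with a median log2 difference of 0.34. The 11 include Il7r and Flt3, whose proteins were used to sort the CLP. Kit, also a gate gene, is among those that did not pass. The lower genes were Jak2 (-1.42), Epor (-1.18) and Stat5a (-1.02), which are parts of erythropoietin and thrombopoietin signalling and were singled out because they complete that count. Jak2 had intensities of 225, 214 and 218 on the CLP arrays, against 620.1, 655 and 568 on the MkP arrays. Il6st, the shared chain of the interleukin 6 receptors, had 402, 257 and 113 on the CLP arrays, against 27.2, 21.3 and 33.6 on the MkP arrays. Both lay apart in the populations. Of 18 chemokine receptors and homing genes, 6 were higher in CLP, 1 was lower and 11 did not pass. The share past the test was 38.9%, beside 12.5% of all genes. Selplg, the P-selectin ligand, had 1102, 1109 and 960.3 on the CLP arrays, against 245, 193 and 176 on the MkP arrays, whereas its partner Selp was lower in CLP as given above. Itgal, the alpha chain of the leukocyte integrin LFA-1, was higher in CLP with a log2 difference of 1.91.

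Lists of other branches also held differences, and they share members with the lists above. Of 23 measured stem and multipotent genes, 11 were lower in CLP and 5 were higher, and the median was -0.72. The share past the test was 69.6%, beside 12.5% of all genes. Gata2, Meis1, Mecom and Hoxa9 are among the members that also stand in the megakaryocyte regulator list, and Sox4 stands in the lymphoid one. Angpt1 had intensities of 112, 252 and 73.3 on the CLP arrays, against 1054, 1241 and 798 on the MkP arrays, and Tek, its receptor, had 8.54, 7.56 and 9.06 on the CLP arrays, against 84.9, 168 and 54.4 on the MkP arrays. Ligand and receptor were thus both lower in CLP. Of 26 erythroid genes, 11 were lower in CLP and 1 was higher, with a median of -0.31 and 46.2% past the test. Tal1 and Gfi1b of this list also stand among the megakaryocyte regulators. Mfsd2b (-4.11), Hemgn (-3.68) and Car2 (-3.13) had the largest log2 differences among the lower genes, and Tfrc, the transferrin receptor that imports iron, was the higher one, with 558, 1279 and 588 on the CLP arrays against 223, 211 and 208 on the MkP arrays. Of 26 granulocyte and monocyte genes, 4 were higher, 2 were lower and 20 did not pass, so 23.1% passed beside 12.5% of all genes. The 4 include Irf8, which also stands among the lymphoid regulators. Mpo, the myeloperoxidase of primary granules, had 737, 837 and 723 on the CLP arrays, against 63.5, 39.3 and 37.0 on the MkP arrays, and averaged 7503 in preGM. Prtn3, a protease of the same granules, had 27.3, 35.8 and 24.5 on the CLP arrays, against 226, 184 and 117 on the MkP arrays. Genes of primary granules therefore did not differ in 1 direction.

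Cell cycle genes of G2 and M phase were lower in CLP almost without exception. Of 27 measured, 25 were lower, none was higher and 2 did not pass, with a median log2 difference of -1.37, beside the 6.55% of all genes that were lower. Hmmr, which encodes a spindle-binding receptor of hyaluronan, had intensities of 161, 105 and 46.2 on the CLP arrays, against 649, 681 and 548 on the MkP arrays, a log2 difference of -2.54 ± 0.26 (SE, limma, adjusted p = 7.39e-06). Ccnb2, a mitotic cyclin, had 57.9, 138 and 68.4 on the CLP arrays, against 373, 679 and 373 on the MkP arrays. Ube2c, the ubiquitin enzyme of mitotic exit, had 62.7, 85.2 and 54.2 on the CLP arrays, against 359, 514 and 294 on the MkP arrays. Kif2c, a microtubule depolymerase at centromeres, had 84.8, 85.5 and 88.2 on the CLP arrays, against 435, 387 and 360.2 on the MkP arrays. The groups did not overlap in these 4 genes. The members that did not pass were Kif23 and Ect2. Kif23 had 325, 389.6 and 253 on the CLP arrays, against 141, 249.7 and 156 on the MkP arrays, a log2 difference of 0.79 without overlap. It passed as higher in CLP with quantile normalization (limma, adjusted p = 0.0147), the Gapdh ratio covariate (0.0142) and the SD over mean filter (0.0367). Ect2 had 59.2, 137 and 31.7 on the CLP arrays, against 58.7, 33.5 and 45.9 on the MkP arrays. The count was again 25 without CLP replicate 2, was 22 with the replicate number as a block, and was 13 when only the 6 arrays were fitted. In bulk samples, fewer cycling cells and less of these RNAs per cell cannot be told apart.

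S phase genes differed less. Of 23 measured, 4 were lower in CLP, none was higher and 19 did not pass, with a median log2 difference of -0.30. The share that passed was 17.4%, beside 12.5% of all genes. The count of lower genes was 10 without CLP replicate 2, so that array moved it by more than 1.5 times. It was 2 with the replicate number as a block. Over all genes, too, the lower calls rose without CLP replicate 2, from 1139 to 1854. Pcna, the sliding clamp of the replication fork, had intensities of 613, 3011 and 665 on the CLP arrays, against 1807, 2302 and 1241 on the MkP arrays, and was singled out after its values were seen. CLP replicate 2 lay above all MkP arrays for this gene and the other CLP arrays lay below them, and without it the log2 difference was -1.42 (limma, adjusted p = 0.0281). The median of the S phase genes, each centred on its mean over the 6 arrays, was -0.17, 0.27 and -0.58 on the CLP arrays, against 0.17, 0.23 and 0.19 on the MkP arrays. For the G2 and M phase genes it was -0.79, -0.41 and -0.93 on the CLP arrays, against 0.71, 1.08 and 0.48 on the MkP arrays. Among 15 cyclin D and kinase inhibitor genes, Cdkn1a, the inhibitor p21, was higher in CLP, with 231, 313 and 236 on the CLP arrays against 40.6, 40.7 and 44.3 on the MkP arrays. Cdkn2d (-1.52), Cdkn2c (-0.99) and Rb1 (-1.67) were lower by the log2 differences given. Of the 15, 26.7% passed, beside 12.5% of all genes. Without CLP replicate 2, 5 genes of this list were lower, beside the rise over all genes given above. The calls of Cdkn2c and Rb1 were lost when only the 6 arrays were fitted (limma, adjusted p = 0.0540 and 0.0691). None of 19 ribosome biogenesis genes passed in limma, while at an unadjusted p under 0.05 1 was higher and 1 was lower. Without CLP replicate 2, 2 passed as lower, again beside the rise over all genes.

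**Figure D4:**
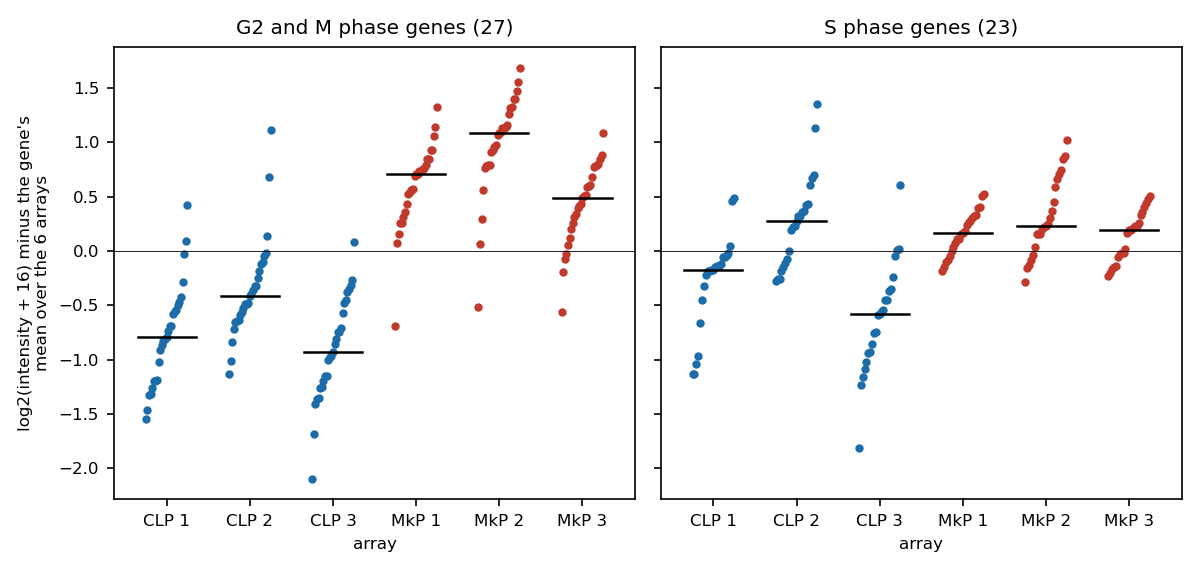
Values of the 27 G2 and M phase genes (left) and the 23 S phase genes (right) on each of the 6 arrays, as log2(intensity + 16) minus the mean of the gene over the 6 arrays. Points are genes in rising order and lines are medians. All 3 CLP medians lie below all 3 MkP medians on the left, and CLP replicate 2 has the highest median on the right.

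Of 9 measured MHC class II genes, 6 were higher in CLP and 3 did not pass, with a median log2 difference of 0.86. H2-Aa had intensities of 238, 331 and 189 on the CLP arrays, against 90.3, 73.0 and 34.0 on the MkP arrays. H2-DMa, which helps to load peptides, differed by 0.90, and its call was lost when CLP replicate 2, MkP replicate 1 or MkP replicate 3 was left out (limma, adjusted p between 0.0565 and 0.0802). Of 18 immediate-early genes, 7 were higher in CLP, none was lower and 11 did not pass, so 38.9% passed beside 12.5% of all genes. With only the 6 arrays fitted 4 were higher. Fos had 878, 496 and 2373 on the CLP arrays, against 26.3, 13.9 and 19.8 on the MkP arrays, a log2 difference of 4.85 ± 0.44 (SE, limma, adjusted p = 2.11e-06). CLP replicate 3 was the highest. Zfp36 (1.64) and Jun (1.39) were also higher by the log2 differences given.  Of 15 interferon response genes, 1 was higher, 2 were lower and 12 did not pass, so 20% passed beside 12.5% of all genes. Of 14 BCL2 family genes, 3 were higher, 1 was lower and 10 did not pass, so 28.6% passed beside 12.5% of all genes. Bcl2l11, which encodes the death activator BIM, had 862, 796 and 1003 on the CLP arrays, against 227, 215 and 138 on the MkP arrays. Bcl2l1, which encodes the survival factor BCL-XL of platelets, had 188, 125 and 124 on the CLP arrays, against 249, 293 and 221 on the MkP arrays, and its log2 difference was -0.76. The call was lost in limma when only the 6 arrays were fitted (adjusted p = 0.0851), with quantile normalization (adjusted p = 0.0794) and when its probe sets were averaged, where the log2 difference was -0.19 (adjusted p = 0.0668).

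Markers of other cell types were measured as lists, and their counts stand beside the 12.5% of all genes that passed. The share was 8.33% of the neutrophil, 5.56% of the T and NK cell, 14.3% of the macrophage and 10% of the mast cell and basophil markers. It was higher for the mature B and plasma cell (18.2%), the endothelial and stromal (31.2%) and the dendritic cell markers (46.2%). Among 11 mature B and plasma cell markers 2 were higher in CLP, Sdc1 and Bank1. Of the 11, 5 averaged under 16 in both CLP and MkP, among them Ms4a1, which encodes CD20. Among 18 T and NK cell markers 1, Klrd1, was higher in CLP. Of the 18, 7 averaged under 16 in both CLP and MkP, Cd3g among them. Among 12 neutrophil markers 1 was higher and none was lower, and their summed intensity was 246, 174 and 343 on the CLP arrays, against 1695, 205 and 646 on the MkP arrays. Ngp, a granule protein of neutrophils, had 54.6, 21.4 and 69.8 on the CLP arrays, against 852, 36.2 and 268 on the MkP arrays, and did not pass. MkP replicate 1 was thus the highest array. Of 13 dendritic cell markers 6 were higher in CLP, and 5 of the 13 also stand in the lineage lists. The remaining 8 summed to 1465 to 1845 on the CLP arrays, against 596 to 647 on the MkP arrays. Of 16 endothelial and stromal markers 4 were lower in CLP and 1 was higher. Without the 2 that also stand in the granule list, Vwf among them, the other 14 summed to 299.6 to 515 on the CLP arrays, against 418 to 464 on the MkP arrays. Of 14 macrophage markers 1 was higher and 1, Apoe, was lower, and the list summed to 402 to 564 on the CLP arrays, against 634 to 902 on the MkP arrays. Apoe weighs heavily in these sums, with 14.1, 16.9 and 29.9 on the CLP arrays, against 258, 435 and 209 on the MkP arrays. It averaged 1299 in preMegE. Of 10 mast cell and basophil markers 1 was lower, and the sums were 175 to 249 on the CLP arrays, against 179 to 232 on the MkP arrays. None of 6 eosinophil markers passed in limma, with 1 higher and 0 lower at an unadjusted p under 0.05. Their sums were 56.8 to 75.5 on the CLP arrays, against 59.6 to 77.2 on the MkP arrays. The whole B cell list summed to 681 to 1728 on the CLP arrays, against 879 to 1144 on the MkP arrays, and the T and NK cell list to 767 to 889.7 on the CLP arrays, against 778 to 915 on the MkP arrays. The whole dendritic cell list summed to 3967 to 4558 on the CLP arrays, against 716 to 789 on the MkP arrays, and the whole endothelial list to 356 to 580.3 on the CLP arrays, against 2250.3 to 2629.5 on the MkP arrays. The part of such cells in the differences was not tested.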

How the data were processed

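RNA of sorted bone marrow fractions was amplified and hybridised to Affymetrix mouse expression arrays. The authors extracted linear RMA intensities, per the series' design text and the submitters' processing notes, and deposited them as a table of intensity per probe set. Values were converted to log2(intensity + 16) from the deposited table. Of 45101 probe sets, 34958 have 1 gene symbol, and a gene took its probe set with the highest mean over the arrays. The files give no detection call, and precision is limited by how many arrays there are. Fold changes understate differences of dim genes.

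A model with 1 term for each fraction was fitted to all 17 arrays in limma 3.58.1 (R 4.3.3), with 12 residual and 2.03 prior degrees of freedom, and p-values were adjusted by Benjamini-Hochberg over all genes. The fit was tested on simulated data. Figures were drawn with matplotlib 3.10.9. Deviations of CLP and MkP arrays from their group means correlated at 0.129, 0.425 and 0.213 for pairs with the same replicate number. Pairs of different number ran from -0.359 to 0.237. The highest of these was CLP replicate 1 with MkP replicate 3, above the 0.129 of CLP replicate 1 with its own number. A fit with the number as a block was made as well.

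The comparison and its gene lists were chosen with earlier results of these data known. Of the listed names, 52 are not used here because no probe set carries them, and 3 are not autosomal. Named by rule were the sort genes, the 12 largest differences each way among genes past the test without overlap, and from each list the largest differences past the test with up to 3 of the brightest members that did not pass. Cd3g, Cd48, Epor, Ets1, Fli1, Gp6, Gp9, Jak2, Lyl1, Ms4a1, Myb, Pax5, Pcna, Runx1, Stat5a, Tbxa2r, Tbxas1, Tfrc and Tubb1 were named after their values were seen. Alternatives covered the pseudocount, filters, probe set choice, normalization, array weights, the Gapdh ratio, the arrays fitted, the replicate block and each replicate left out.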

Additional observations from a re-analysis of the deposited data

How the results depend on the processing

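Of 123 genes named in the text that passed the test, 111 passed in the same direction under each of the 18 alternatives that held them, and none reversed. When only the 6 arrays were fitted, 1159 genes passed, 571 higher in CLP and 588 lower, and 13 G2 and M phase genes were lower; fewer arrays then estimate the spread. With the study's filter of SD over mean above 0.5, 1135 genes passed, 601 higher and 534 lower, out of fewer genes tested. Leaving out 1 replicate at a time gave 1651 to 3052 genes past the test, 809 to 1198 higher, 813 to 1854 lower, and 17 to 25 G2 and M phase genes lower. The lymphoid regulators stayed at 12 higher, the recombination genes ran from 9 to 11 higher, the platelet receptors stayed at 15 lower and the granule genes ran from 12 to 13 lower. Over all lists 191 to 231 members passed. With the replicate number as a block, 1696 genes passed, 835 higher and 861 lower. Among named genes the block ended the calls of Cd48 (adjusted p = 0.0583) and H2-DMa (adjusted p = 0.0635) and changed no other call.

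Among named genes that did not pass, small differences turned sign. Leaving out 1 replicate at a time gave log2 differences of -0.11 to 0.81 for Cd79b, with the lowest without CLP replicate 2, and of -0.03 to 0.81 for Ect2, again with the lowest without CLP replicate 2. The range was -0.0033 to 0.29 for Syk, -0.026 to 0.11 for Igk and -0.17 to 0.035 for Ms4a1. With array weights Igk was -0.012 and Ms4a1 was 0.029. The cause was not tested. Dim probe sets, 5653 genes with a mean intensity under 16, have no background level to be set against.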

Other observations

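The genes in this part lie outside the lists and were chosen after their values were seen. The Gimap genes, a cluster of small GTPases known for lymphocyte survival, were all higher in CLP, 8 of 8 measured. That count stands beside 5.98% of all genes, and the family was picked for its values. Gimap4 had 474, 885 and 555 on the CLP arrays, against 11.2, 19.0 and 12.2 on the MkP arrays, a log2 difference of 4.40 ± 0.20 (SE, limma, adjusted p = 1.6e-09). Gimap9 differed by 1.98, and its CLP replicate 3 value of 62.7 lay close to the MkP replicate 2 value of 56.6. Its call was lost in limma when only the 6 arrays were fitted (adjusted p = 0.178), without CLP replicate 1 (adjusted p = 0.0609) and without MkP replicate 1 (adjusted p = 0.0648). Sting1, which encodes the adaptor that answers cytosolic DNA, had 881, 895 and 809.7 on the CLP arrays, against 12.3, 14.5 and 13.3 on the MkP arrays, and its adjusted p of 4.11e-14 in limma was the smallest of all genes compared.

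Phosphodiesterases that break down cyclic GMP differed in opposite directions. Pde2a had 2427, 1706 and 2289 on the CLP arrays, against 152, 92.8 and 105 on the MkP arrays, a log2 difference of 4.03 ± 0.24 (SE). Pde5a, the target of sildenafil, had 20.9, 11.1 and 9.84 on the CLP arrays, against 403, 528 and 453 on the MkP arrays, a log2 difference of -4 ± 0.19 (SE). Rgs2 (3.45) and Rgs19 (1.48), which encode brakes on G protein signals, were higher in CLP by the log2 differences given. The tubulin genes Tuba8 (-3.82) and Tubb2a (-2.13) were lower in CLP.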
